A study of Mus musculus with 2 samples.

Results

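The genes described here are 7 that T cells use when they help B cells in follicles: Il21, Cxcr5, Sh2d1a, Izumo1r, Tox2, Tox and Maf. They were taken by symbol from a list, each matched 1 line of the gene table, and they are 7 of the 30905 genes counted. Each was followed in raw UMI counts across T cell subsets of 2 single-cell libraries. A UMI (unique molecular identifier) marks 1 captured RNA molecule, and levels below are in CPM: the gene's UMIs per 1000000 of a group's UMIs outside immunoglobulin and mitochondrial genes.

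Follicular helper T cells are CD4 T cells that enter B cell follicles and drive germinal centers, where B cells mutate and switch their antibody genes. The transcription factor Bcl6 directs their fate, Cxcr5 lets them follow the chemokine CXCL13 into the follicle, and the interleukin Il21 acts on B cells through the receptor Il21r. In the gut wall such cells are known from Peyer's patches and smaller lymphoid follicles, where they support IgA responses.

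One library came from male C57BL/6 mice on a fasting-mimicking diet (FMD) and the other from mice fed ad libitum. Both groups received 12 mg/kg azoxymethane, a carcinogen, by injection and then 3 cycles of 2.5% dextran sodium sulfate in the drinking water (7 days on, 14 days off), with the diets given from the second cycle. CD45+ cells (leukocytes) of tumor-bearing colon were captured with the 10x Genomics 3′ V3 kit. Each library was a pool of 4 mice, so there was 1 library per diet. The extraction text in the labels also speaks of normal colon, and how much lymphoid follicle each sample held is not given in the sources used here. With 1 library per diet there is no replicate and no test between diets: brackets after a level are 95% Poisson intervals, those after a log2 ratio are exact conditional intervals, and those after a share are exact binomial (Clopper-Pearson) ones. All of them cover counting error only, not the spread between mice.

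The FMD library held 5877 barcodes and 35280790 UMIs, of which 4591 cells were kept and 1237 were T-like. The ad libitum library held 6089 barcodes and 35712762 UMIs, with 4851 cells kept and 1251 T-like. The T-like cells had a median of 7185 UMIs in FMD and 7180 in ad libitum, so depth was close to equal. The libraries shared 7 barcodes, none of them a kept T-like cell in both. T-like cells were divided into 14 sub-clusters with the 7 genes left out of the clustering, and each sub-cluster is called here by its leading gene. A cell type name was added only where at least 3 markers of that type lay at least 2-fold above the mean of the other sub-clusters. One sub-cluster carried B cell genes (Ebf1-led, 16 FMD and 11 ad libitum cells) and was left out of the T-like totals.

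Of the 7 genes, 3 had start sites in the RefSeq promoter table used here (GRCm38.p6): Il21, Izumo1r and Tox2. The 250 bases before the Il21 and the Izumo1r start are shown because these are the cytokine of the set and the member whose highest level lay in a regulatory T-like sub-cluster. Both are given on the gene's own (minus) strand, 5′ to 3′, and capitals mark matches of the 5 motifs searched.
Il21, chr3:37232637-37232886: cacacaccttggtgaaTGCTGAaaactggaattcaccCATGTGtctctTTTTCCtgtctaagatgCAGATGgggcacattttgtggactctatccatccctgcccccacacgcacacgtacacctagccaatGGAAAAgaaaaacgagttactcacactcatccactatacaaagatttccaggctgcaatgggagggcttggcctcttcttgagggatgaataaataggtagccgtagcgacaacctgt
Izumo1r, chr9:14903768-14904017: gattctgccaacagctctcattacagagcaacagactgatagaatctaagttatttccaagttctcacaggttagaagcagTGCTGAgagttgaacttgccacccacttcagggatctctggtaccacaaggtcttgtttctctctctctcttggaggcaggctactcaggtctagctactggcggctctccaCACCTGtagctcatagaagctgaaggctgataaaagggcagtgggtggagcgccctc
The motifs were a Maf half-site (TGCTGA), a STAT site (TTCNNNGAA), an AP-1 site (TGANTCA), an E-box (CANNTG) and an NFAT-type site (GGAAAA), each read on both strands. The Maf half-site occurred once in each window, starting 234 bases before the RefSeq start of Il21 and 169 bases before that of Izumo1r. Of all 32851 windows of this length, 16.1% held it. Il21 also had E-boxes starting 213 and 185 bases upstream (66.2% of all windows hold at least 1) and NFAT-type letters starting 202 and 118 bases upstream (20.4%). Izumo1r had 1 E-box, starting 57 bases before its RefSeq start. In the GENCODE M21 annotation, Izumo1r starts at 14903949, inside its window. Its half-site and E-box lie downstream of that start, within the GENCODE gene. Neither window held the STAT or AP-1 letters, which 7.02% and 6.75% of windows held. None of the 5 windows of Tox2 held the half-site, and the first, chr2:163202877-163203126, had 1 E-box.

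The follicular helper-like cells formed 2 sub-clusters. The larger (Ntrk3-led, 162 FMD and 143 ad libitum cells) was led by Ntrk3, Tnfsf8, Slamf6, Cd200 and Myb. The smaller (Gal-led, 14 FMD and 17 ad libitum cells) was led by Gal, Jdp2 and Cebpa and held 411 CPM of Bcl6 and 869 CPM of Pdcd1, the checkpoint receptor PD-1, over both libraries. The Ntrk3-led cells had 93.2 CPM of Bcl6 and 58.9 CPM of Pdcd1. Over all T-like cells, Bcl6 was at 37.9 CPM in FMD and 41.3 CPM in ad libitum. Pdcd1 was at 86.5 CPM in FMD and 121 CPM in ad libitum there. The Ntrk3-led cells thus lay above all T-like cells in Bcl6 but below them in Pdcd1. Ascl2, another follicular helper regulator, was at 0 in the Ntrk3-led cells and 24.2 CPM in the Gal-led cells. Of 9 markers listed for the type, 3 lay at least 2-fold up in the Ntrk3-led cells and 4 in the Gal-led cells, so the name does not rest on all of them. Foxp3, the regulatory T cell factor, was at 5.4 CPM in FMD and 3.1 CPM in ad libitum Ntrk3-led cells. In Gal-led cells it was at 79.7 CPM in FMD and 166 CPM in ad libitum, carried by 5 of the 31 cells. Together these 2 sub-clusters made up 176 of 1237 T-like cells in FMD (14.2%) and 160 of 1251 in ad libitum (12.8%), a log2 ratio of 0.15 [−0.16, 0.47].

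**Figure D1:**
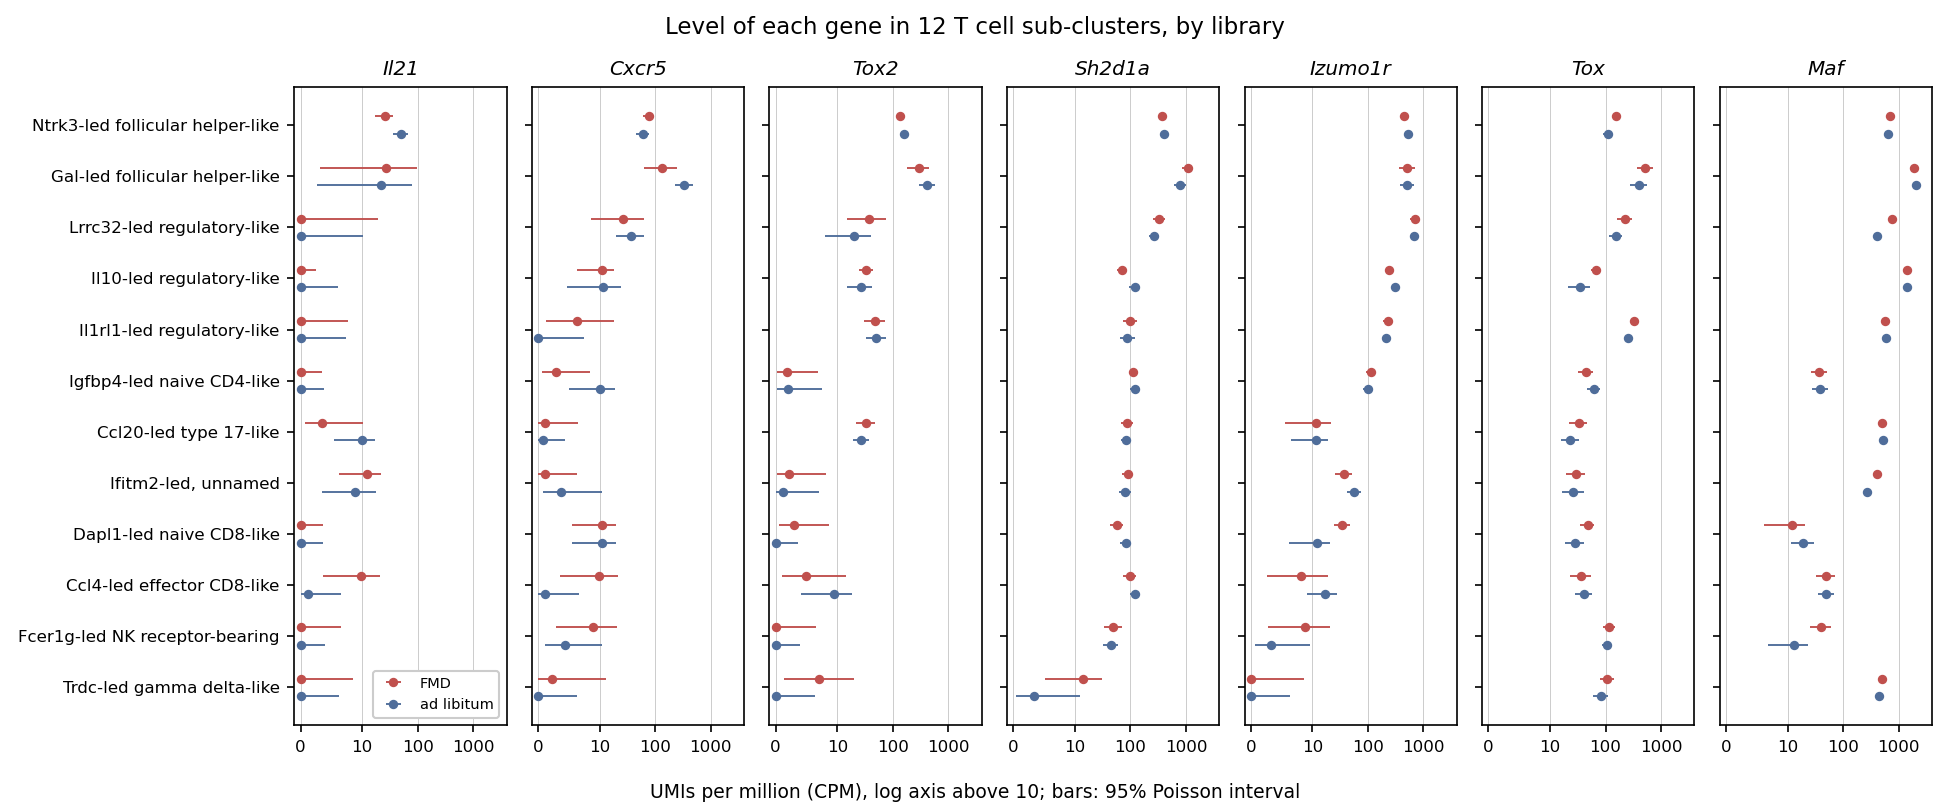
Level of each of the 7 genes (CPM, horizontal, logarithmic above 10) in 12 T cell sub-clusters of the FMD and ad libitum libraries, with 95% Poisson intervals. Cxcr5 and Tox2 are highest in the Ntrk3-led and Gal-led rows, Il21 in Gal-led cells rests on 2 UMIs per library, Izumo1r reaches its highest level in the Lrrc32-led regulatory row (696 and 668 CPM), and Maf lies between 275 and 2069 CPM in 8 of the rows.

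Il21, the cytokine of the set (chr3:37222759-37232636, minus strand, GENCODE M21 on GRCm38), was rare even in the cells that had it. In Ntrk3-led cells it was at 25.3 CPM [16.8, 36.6] in FMD and 49.7 CPM [36.6, 65.9] in ad libitum. These levels rest on 28 UMIs in 16 FMD cells and 48 UMIs in 17 ad libitum cells. The Gal-led cells added 2 UMIs in each library. Outside follicular helper-like cells, Il21 was found in the Ifitm2-led unnamed CD4 cells (11 UMIs in FMD and 7 in ad libitum), in Ccl20-led type 17-like cells (3 in FMD and 13 in ad libitum) and in Ccl4-led effector CD8-like cells (6 in FMD and 1 in ad libitum). Neither library had an Il21 UMI in the naive CD4-like, naive CD8-like, regulatory, gamma delta-like or Fcer1g-led NK receptor-bearing sub-clusters. In the naive CD4-like cells, 3 counts would have been 2.88 CPM in FMD and 3.09 CPM in ad libitum.

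Il21 UMIs were also unevenly spread over single cells. Of the 18 FMD follicular helper-like cells with an Il21 UMI, 11 had exactly 1 and the highest had 5. Of the 19 such ad libitum cells, 12 had exactly 1 and the highest had 17, which is 34.0% of that group's 50 UMIs. The share of cells with an Il21 UMI was 10.2% in FMD and 11.9% in ad libitum at median depths of 6472.5 and 6629.5 UMIs. After thinning every cell to 1000 UMIs the shares were 3.43% in FMD and 3.77% in ad libitum. B-like cells, which should lack the gene, had an Il21 UMI in 0.0363% of FMD and 0% of ad libitum cells (0 of 3082, which allows up to 0.0973%) at median depths of 5209 and 5063.5 UMIs.

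Cxcr5, the follicle-homing chemokine receptor (chr9:44511787-44561877, minus strand), is also a B cell gene. B-like cells held 1689 of the 2203 Cxcr5 UMIs of the FMD library, at 117 CPM, and 1608 of the 2026 of the ad libitum library, at 102 CPM. Among T-like cells it was highest in the Gal-led cells, at 133 CPM [63.7, 244] in FMD and 332 CPM [224, 474] in ad libitum. The Ntrk3-led cells followed, at 76.0 CPM [60.6, 94.1] in FMD and 59.0 CPM [44.7, 76.4] in ad libitum. In ad libitum the intervals of these 2 sub-clusters do not overlap, and in FMD they do. Lrrc32-led regulatory T-like cells came next, at 26.4 CPM [8.56, 61.5] in FMD and 36.6 CPM [19.5, 62.6] in ad libitum. The other 9 of the 12 sub-clusters plotted lay between 0 and 11.5 CPM.

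Free RNA from the many B cells could put Cxcr5 UMIs into T cell droplets, so the B cell gene Cd79a was read in the same cells. In B-like cells there were 0.0727 Cxcr5 UMIs per Cd79a UMI in FMD and 0.0624 in ad libitum. Follicular helper-like cells held 6 Cd79a UMIs in FMD and 8 in ad libitum, which at those ratios would bring 0.464% of their 94 Cxcr5 UMIs in FMD and 0.574% of their 87 in ad libitum. Of follicular helper-like cells with a Cxcr5 UMI, 0 of 56 in FMD and 3 of 53 in ad libitum had a Cd79a UMI. Of those without a Cxcr5 UMI, 6 of 120 in FMD and 5 of 107 in ad libitum did. Barcodes rich in B cell genes had already been removed, so these cells were low in Cd79a in part by selection. Cells were also clustered again with no doublet removal and any B gene-bearing sub-cluster kept. The Cxcr5 log2 ratio over other T-like cells was then 1.96 in FMD and 2.40 in ad libitum. With both left out, it was 3.51 in FMD and 3.67 in ad libitum. The source of the Cxcr5 UMIs was not tested. Cxcr5 overlaps Bcl9l on the opposite strand, which had 594 UMIs in T-like cells. Whether the counting used strand is not given in the sources used here.

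Sh2d1a (chrX:42502453-42529330, plus strand) encodes SAP, the adaptor that couples SLAM-family receptors to the kinase Fyn and that T cells need for lasting contact with B cells. It was broadly present but graded. Its level was 1089.8 CPM [867, 1353] in FMD and 786 CPM [614, 991] in ad libitum Gal-led cells. Ntrk3-led cells had 367 CPM [332, 405] in FMD and 406 CPM [367, 448] in ad libitum. Lrrc32-led regulatory cells had 327 CPM [251, 419] in FMD and 270.5 CPM [219, 330.3] in ad libitum, overlapping the Ntrk3-led cells in FMD and not in ad libitum. Apart from gamma delta-like cells, the other 8 sub-clusters plotted lay between 44.8 and 121 CPM. Gamma delta-like cells had the least, 13.9 CPM [5.12, 30.3] in FMD and 3.43 CPM [0.415, 12.4] in ad libitum.

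Izumo1r (chr9:14885814-14903949, minus strand), also known as Folr4, encodes folate receptor 4, a surface protein that marks regulatory and follicular helper T cells in the mouse and is also Juno, the egg's receptor for the sperm protein Izumo1. Its order differed from that of Il21, Cxcr5 and Tox2. The highest level was in Lrrc32-led regulatory T-like cells, at 696 CPM [582, 825] in FMD and 668 CPM [585, 758] in ad libitum. Gal-led cells had 505 CPM [357, 693] in FMD and 509 CPM [373, 679] in ad libitum, and Ntrk3-led cells 441 CPM [403, 482] in FMD and 521 CPM [476, 568] in ad libitum. Lrrc32-led over Ntrk3-led cells gave a log2 ratio of 0.66 [0.37, 0.94] in FMD and 0.36 [0.13, 0.58] in ad libitum. Il10-led regulatory cells had 238 CPM in FMD and 309.9 CPM in ad libitum, and Il1rl1-led regulatory cells 229 CPM in FMD and 215 CPM in ad libitum. Naive CD4-like cells stood at 113 CPM in FMD and 101 CPM in ad libitum. Gamma delta-like cells had 0 Izumo1r UMIs in both libraries, where 3 counts would be 6.97 CPM in FMD and 5.14 CPM in ad libitum. That absence depends on the clustering: T-like cells with a Trdc UMI (97 in FMD and 113 in ad libitum), whatever their sub-cluster, held 33 Izumo1r UMIs in FMD and 4 in ad libitum (3.38 [1.88, 5.33]). The same cells held 18 Tox2 UMIs in FMD and 4 in ad libitum (2.50 [0.90, 4.52]).

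The other folate receptor genes looked up, Folr1 and Folr2, had 0 UMIs in follicular helper-like cells of both libraries. Within the Lrrc32-led cells, Izumo1r was at 628 CPM in the 51 cells with a Foxp3 UMI and 772 CPM in the 28 without, over both libraries. Cells with and without a Foxp3 UMI thus both held the gene.

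The transcription factors Tox2, Tox and Maf differed from each other in where they lay. Tox2 (chr2:163203125-163324170, plus strand), an HMG-box factor that promotes the follicular helper program in mice, was at 292 CPM [183, 443] in FMD and 420.5 CPM [298, 577] in ad libitum Gal-led cells. Ntrk3-led cells had 136 CPM [115, 159] in FMD and 158 CPM [134, 186] in ad libitum. Regulatory and type 17-like sub-clusters lay between 19.7 and 50.3 CPM. Fcer1g-led NK receptor-bearing cells had 0 Tox2 UMIs in both libraries (a separate cluster of NK receptor-bearing cells outside the T-like cells had 13 in FMD and 3 in ad libitum), and naive CD4-like cells had 2 in each.

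Tox (chr4:6686353-6991557, minus strand) is an HMG-box factor known from T cell development and from chronically stimulated T cells. It was highest in Gal-led cells, at 518 CPM [369, 709] in FMD and 398 CPM [279, 551] in ad libitum. Il1rl1-led regulatory cells followed, at 330.0 CPM [280.4, 386] in FMD and 259 CPM [217, 308] in ad libitum, and their intervals overlap those of the Gal-led cells. Lrrc32-led regulatory cells came next among the sub-clusters plotted. Their log2 ratio over Ntrk3-led cells was 0.55 [0.03, 1.04] in FMD and 0.50 [0.0008, 0.98] in ad libitum. Ntrk3-led cells had 155 CPM [132, 179.7] in FMD and 109.7 CPM [89.8, 133] in ad libitum. That is close to NK receptor-bearing cells, which had 117 CPM [90.4, 149] in FMD and 105 CPM [84.9, 128] in ad libitum.

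Maf (chr8:115682942-115707794, minus strand), a bZIP factor that T cells use to transcribe Il21 and Il10, lay in follicular helper-like, regulatory, type 17-like and gamma delta-like cells. It was at 1927 CPM [1626, 2268] in FMD and 2069 CPM [1783, 2388] in ad libitum Gal-led cells. Il10-led regulatory cells had 1397 CPM [1337, 1459] in FMD and 1446 CPM [1352, 1545] in ad libitum. Ntrk3-led follicular helper-like, Il1rl1-led regulatory, type 17-like and gamma delta-like cells all lay between 441 and 687 CPM. Naive CD8-like cells had 11.9 CPM in FMD and 19.0 CPM in ad libitum. Maf overlaps the gene model Gm15655 on the opposite strand, which had 127 UMIs in T-like cells.

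**Figure D2:**
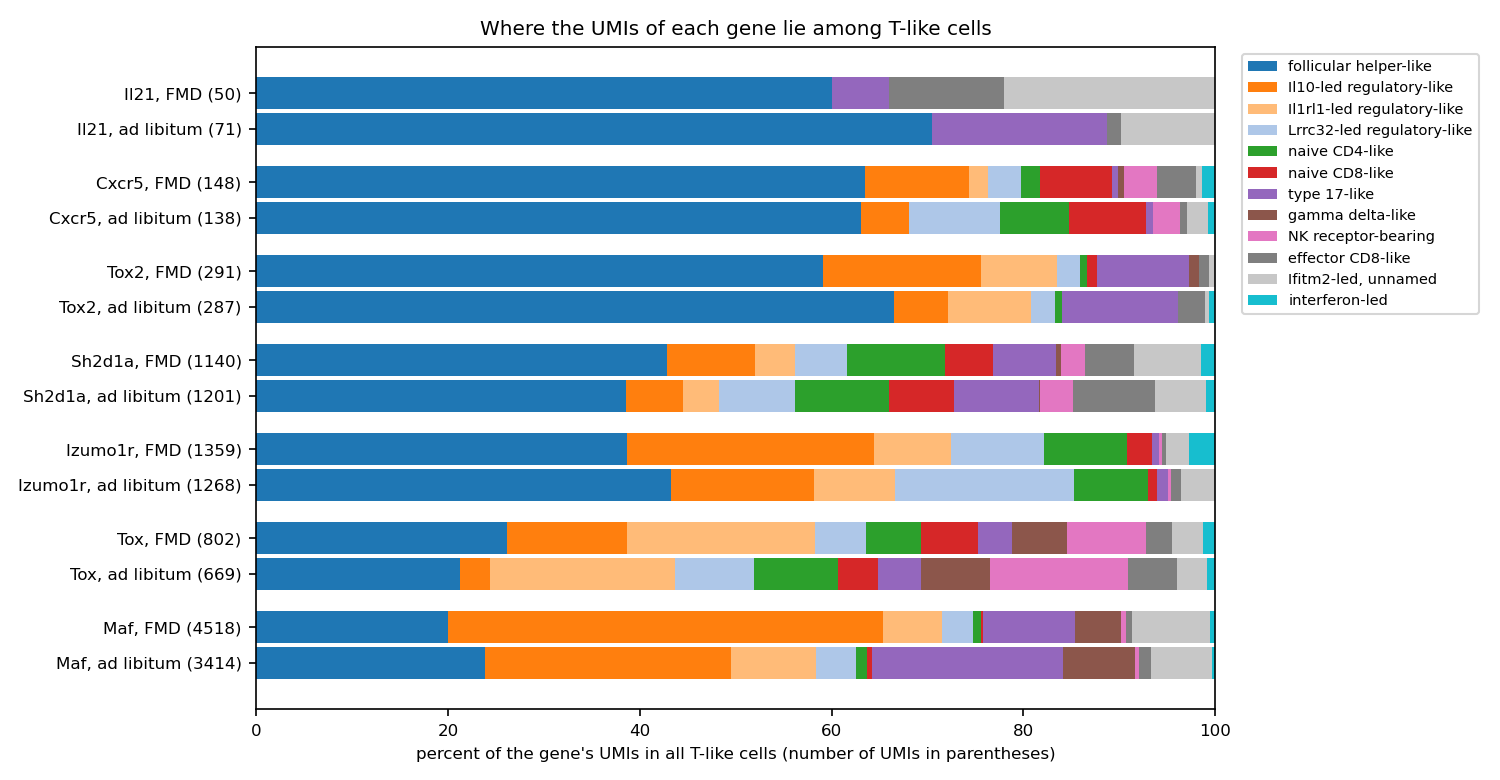
Percent of each gene's UMIs in all T-like cells (horizontal) that lay in each T cell class or regulatory sub-cluster, with an FMD and an ad libitum bar per gene. Follicular helper-like cells, 14.2% and 12.8% of T-like cells, held 60.0% and 70.4% of Il21 UMIs but 20.03% and 23.8% of Maf UMIs.

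Set against all other T-like cells of their own library, follicular helper-like cells held more of all 7 genes, but by very unequal amounts. The log2 ratio (follicular helper-like over other T-like) was 3.51 [3.01, 4.02] in FMD and 3.67 [3.16, 4.20] in ad libitum for Cxcr5. For Il21 it was 3.29 [2.43, 4.19] in FMD and 4.15 [3.39, 4.96] in ad libitum, and for Tox2 3.24 [2.89, 3.59] in FMD and 3.89 [3.53, 4.26] in ad libitum. Sh2d1a followed at 2.29 in FMD and 2.23 in ad libitum, and Izumo1r at 2.04 in FMD and 2.51 in ad libitum. Tox gave 1.21 [0.98, 1.44] in FMD and 1.01 [0.73, 1.28] in ad libitum. Maf gave 0.71 [0.60, 0.82] in FMD and 1.22 [1.11, 1.34] in ad libitum. These ratios describe the cells named from other markers and are not a test, since the genes used for clustering and the 7 genes were read in the same cells.

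The share of each gene's T cell UMIs in follicular helper-like cells shows the same grading. It was 63.5% in FMD and 63.0% in ad libitum for Cxcr5, and 59.1% and 66.6% for Tox2. For Sh2d1a it was 42.8% in FMD and 38.6% in ad libitum, and for Izumo1r 38.7% and 43.3%. For Tox it was 26.2% in FMD and 21.2% in ad libitum. Il10-led regulatory cells held 45.4% of Maf UMIs in FMD and 25.7% in ad libitum. Lrrc32-led regulatory cells, 2.34% of T-like cells in FMD and 4.00% in ad libitum, held 9.71% of Izumo1r UMIs in FMD and 18.7% in ad libitum.

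**Figure D3:**
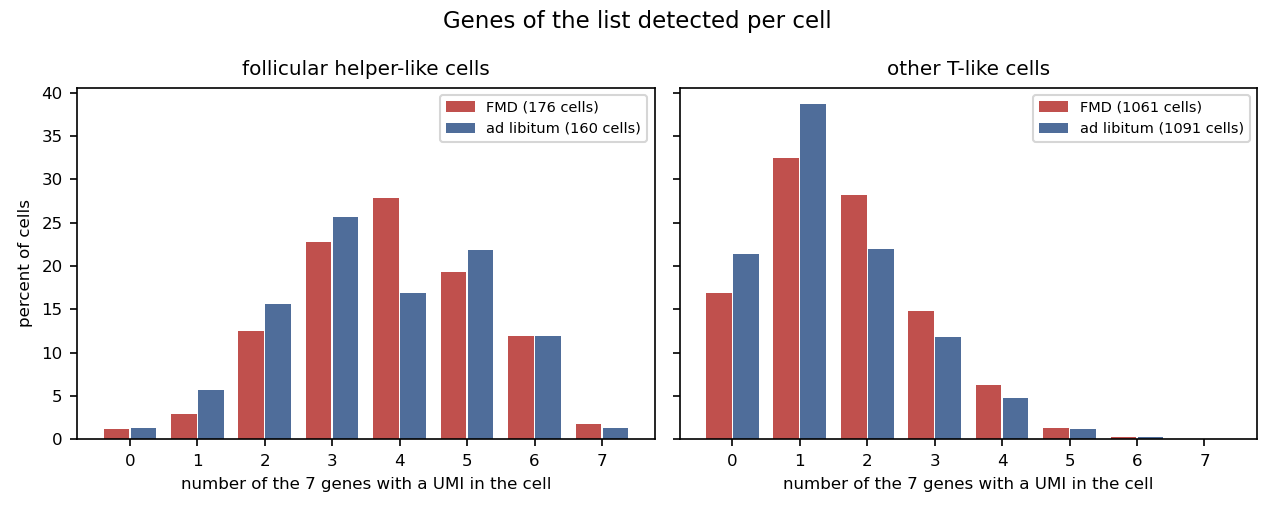
Percent of cells (vertical) by how many of the 7 genes had a UMI in the cell (horizontal), for follicular helper-like and other T-like cells of the FMD and ad libitum libraries. At least 4 genes were found in 60.8% and 51.9% of follicular helper-like cells, against 7.63% and 6.23% of other T-like cells.

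Many single follicular helper-like cells carried several of the genes. The median follicular helper-like cell had a UMI of 4 of the 7 genes in both libraries, against 2 in FMD and 1 in ad libitum for other T-like cells. At least 5 were found in 58 of 176 follicular helper-like cells in FMD (33.0%) and 56 of 160 in ad libitum (35.0%), and in 15 of 1061 and 16 of 1091 other T-like cells. Of the follicular helper-like cells with an Il21 UMI, 18 of 18 in FMD and 18 of 19 in ad libitum also had Maf. Tox2 was found in 14 of the 18 and 12 of the 19, and Cxcr5 in 8 of the 18 and 8 of the 19. Follicular helper-like cells without an Il21 UMI often had these genes too. Maf was found in 140 of 158 such cells in FMD and 113 of 141 in ad libitum. Tox2 was found in 79 of the 158 and 62 of the 141, and Cxcr5 in 48 of the 158 and 45 of the 141. Depth differed between these cells: those with an Il21 UMI had a median of 6543.5 UMIs in FMD and 7405 in ad libitum, and those without had 6472.5 and 6404. How much depth adds to co-detection was not tested.

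Among the T cell sub-clusters with at least 30 cells in each library, 10 in 2 libraries gave 20 points, on which Pearson r of log2(CPM + 10) was used to describe how alike 2 patterns are. The points leave out the Gal-led cells, where Cxcr5, Tox2, Sh2d1a, Tox and Maf were highest, and the Lrrc32-led cells, where Izumo1r was highest. So r does not cover these peaks. The points share libraries and their depth, so r carries no p-value. Within the set, Sh2d1a and Izumo1r were most alike (0.73), then Tox2 and Izumo1r (0.71), whereas Tox had 0.02 with Sh2d1a and −0.05 with Il21. Over 8336 other genes, the pattern nearest to Sh2d1a was that of Slamf6 (0.90), a receptor whose tail binds SAP, followed by Trim59 (0.89) and Il16 (0.88). The nearest to Il21 were Gm14718 (0.91), Ksr1 (0.89) and Tex10 (0.87), and to Cxcr5 Rasa1 (0.86), Msh6 (0.85) and H2-Q2 (0.84). Il21 had 0 UMIs in both libraries in the naive, Il10-led, Il1rl1-led, gamma delta-like and NK receptor-bearing sub-clusters. Its r values thus rest on few points above 0. The nearest to Izumo1r were Stk4 (0.89), Ash1l (0.88) and Ccm2 (0.88). The nearest to Tox2 were Lockd (0.93), Hey1 (0.90) and Cdk5r1 (0.90), to Tox Cd83 (0.90), Gjb2 (0.85) and Whrn (0.83), and to Maf Sla (0.99), Ctsb (0.95) and Smco4 (0.95).

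The diets were compared first over all T-like cells. A gene was called when its libraries differed at least 2-fold and it had at least 100 UMIs over both. Of the 8430 genes with that many UMIs, 0.439% were called, and of the 7 genes 0 were. The median log2 ratio (FMD over ad libitum) of the 7 was 0.11, beside 0.01 over all genes tested. Maf was at 508 CPM [493, 523] in FMD and 382 CPM [369, 395] in ad libitum, a log2 ratio of 0.41 [0.35, 0.48]. Tox was at 90.1 CPM [84.0, 96.6] in FMD and 74.8 CPM [69.3, 80.7] in ad libitum, a log2 ratio of 0.27 [0.12, 0.42]. Il21 was at 5.62 CPM [4.17, 7.41] in FMD and 7.94 CPM [6.20, 10.0] in ad libitum, from 50 and 71 UMIs (−0.50 [−1.05, 0.04]). With the B gene-bearing sub-cluster kept, its ratio was −1.15, and 1 ad libitum barcode there held 41 Il21 UMIs. With the doublets and any B gene-bearing sub-cluster both kept, the Il21 ratio was −1.31. The intervals of Cxcr5 (0.11 [−0.24, 0.45]), Tox2 (0.03 [−0.21, 0.27]), Sh2d1a (−0.07 [−0.19, 0.05]) and Izumo1r (0.11 [−0.0049, 0.22]) reach across 0.

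The Maf ratio over all T-like cells is set here beside the mix of subsets, whose part in it was not tested. Il10-led regulatory cells, a sub-cluster rich in Maf, were 197 of 1237 T-like cells in FMD (15.9%) and 90 of 1251 in ad libitum (7.19%), a log2 ratio of 1.15 [0.78, 1.52]. Within those cells Maf gave −0.05 [−0.16, 0.07], within Il1rl1-led regulatory cells −0.07 [−0.31, 0.17], within type 17-like cells −0.07 [−0.25, 0.11] and within follicular helper-like cells −0.01 [−0.14, 0.13]. With 1 common set of subset shares in both libraries, the Maf ratio over all T-like cells was 0.058, and that of Izumo1r −0.11, while Tox gave 0.30. Maf was higher in FMD within other sub-clusters. Ifitm2-led unnamed cells had 411 CPM in FMD and 275 CPM in ad libitum (0.58 [0.33, 0.83]). Fcer1g-led NK receptor-bearing cells had 23 Maf UMIs in FMD and 12 in ad libitum (1.64 [0.57, 2.78]), and Lrrc32-led regulatory cells, with too few FMD cells for a ratio, 765 CPM [645, 899.6] in FMD and 409 CPM [345, 481] in ad libitum.

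Within follicular helper-like cells, 6 of the 7 genes had at least 100 UMIs and 0 were called, where 0.245% of 3270 genes were. Il21 fell short of 100 UMIs, with 30 in FMD and 50 in ad libitum. It was at 25.4 CPM in FMD and 47.3 CPM in ad libitum, a log2 ratio of −0.90 [−1.60, −0.22], although nearly the same number of cells carried it (18 of 176 and 19 of 160). Without the 1 cell of each library that held the most Il21, the ratio was −0.55 [−1.36, 0.24], so its lower level in FMD rests in part on 1 ad libitum cell. Tox2 gave −0.31 [−0.62, −0.01], from 172 UMIs in FMD and 191 in ad libitum. Izumo1r gave −0.22 [−0.40, −0.05], from 526 UMIs in FMD and 549 in ad libitum. Tox ran the other way, 0.40 [0.09, 0.72], from 210 UMIs in FMD and 142 in ad libitum. With cells thinned to 1000 UMIs the Izumo1r ratio turned to 0.10, and with at most 10% mitochondrial UMIs that of Tox was 0.80. Cxcr5 (−0.05 [−0.49, 0.39]) and Sh2d1a (−0.08 [−0.27, 0.10]) had intervals across 0.

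Cxcr5 was also read in each of the 2 follicular helper-like sub-clusters. In Ntrk3-led cells it had 84 UMIs in FMD and 57 in ad libitum (0.36 [−0.14, 0.88]). In Gal-led cells it had 10 UMIs in 14 FMD cells and 30 UMIs in 17 ad libitum cells, too few cells for a ratio here.

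**Figure D4:**
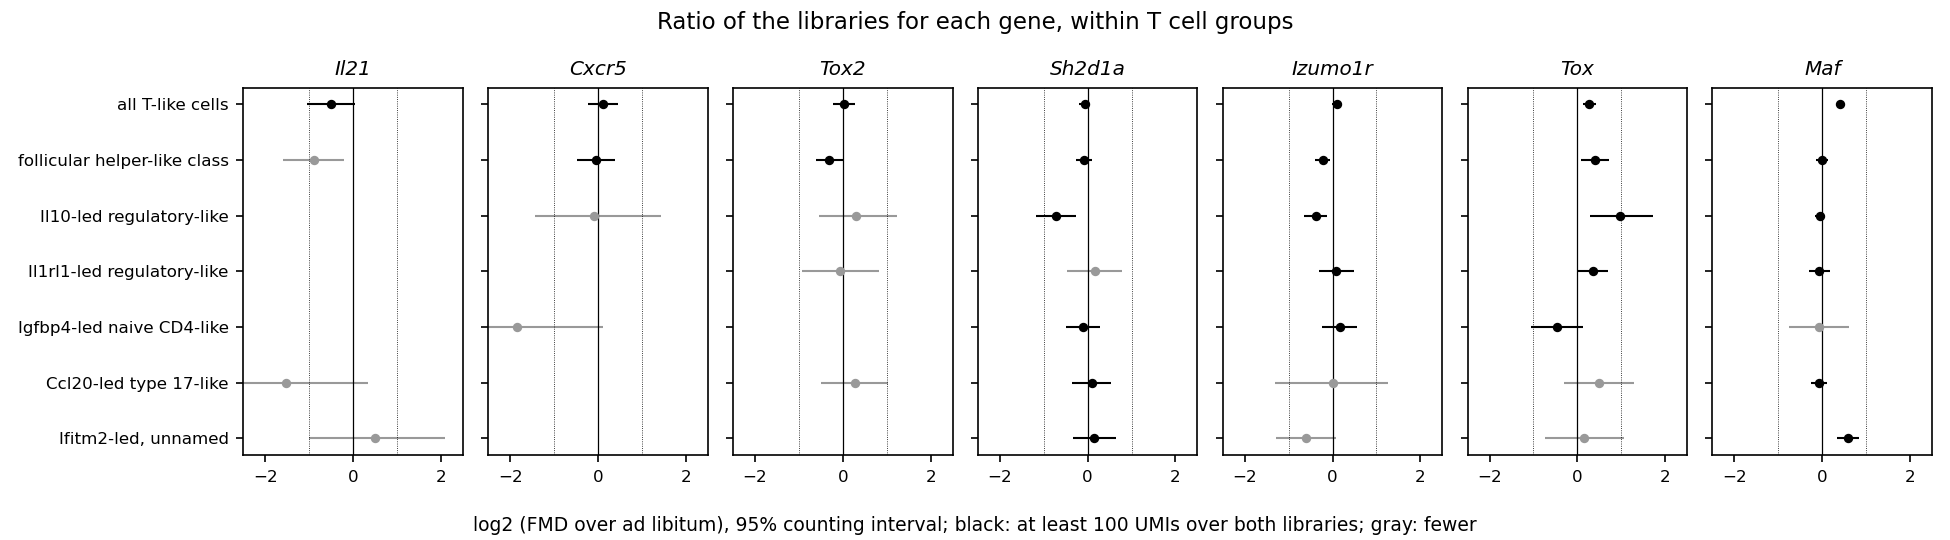
Log2 ratio (FMD over ad libitum, horizontal) of each gene in all T-like cells and 6 T cell groups with 95% counting intervals, gray where a gene had under 100 UMIs and left empty where both libraries had at most 3. Dotted lines mark 2-fold, and intervals that pass the axis are cut there. Maf lies above 0 in all T-like cells (0.41) and in the Ifitm2-led cells (0.58) and between −0.07 and −0.01 in the other 5 groups.

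In the remaining sub-clusters the genes differed by less than 2-fold where they had enough UMIs. Over the 10 sub-clusters with at least 30 cells in each library, 24 comparisons of a gene had at least 100 UMIs and 0 passed 2-fold. Over all genes tested, the share past 2-fold was 0.172% in naive CD8-like, 0.265% in Ntrk3-led, 0.376% in Ifitm2-led, 0.397% in NK receptor-bearing, 0.456% in Il10-led and 0.468% in effector CD8-like cells. It was 0.49% in naive CD4-like, 1.13% in Il1rl1-led, 1.22% in type 17-like and 1.64% in gamma delta-like cells. In Il10-led regulatory cells Tox came closest, at 68.2 CPM [55.5, 82.9] in FMD and 34.6 CPM [21.4, 52.9] in ad libitum (0.98 [0.29, 1.73]). Those intervals do not overlap. In the same cells Sh2d1a was at 71.6 CPM in FMD and 119 CPM in ad libitum (−0.73 [−1.18, −0.28]), and Izumo1r gave −0.38 [−0.64, −0.12]. In the Il1rl1-led regulatory cells Tox gave 0.35 [0.00, 0.69] and Izumo1r 0.09 [−0.31, 0.49]. In naive CD8-like cells Sh2d1a had 57 UMIs in FMD and 82 in ad libitum (−0.54 [−1.05, −0.03]). There Izumo1r had 35 UMIs in 28 FMD cells and 12 UMIs in 9 ad libitum cells (1.53 [0.55, 2.61]), below the minimum for a call.

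A gate on single UMIs in place of clusters gave a like picture for Tox in helper cells. T-like cells with a Cd4 UMI and none of Trdc, Foxp3 or Cd8a numbered 383 in FMD and 427 in ad libitum. Tox was at 85.1 CPM in FMD and 60.0 CPM in ad libitum there (0.50 [0.22, 0.79]), and Il21 at 11.6 CPM in FMD and 15.3 CPM in ad libitum (−0.40 [−1.08, 0.28]). Sh2d1a gave 0.21 [0.05, 0.38], and Maf 0.04 [−0.07, 0.15]. In cells with a Foxp3 UMI and none of Trdc (268 in FMD and 188 in ad libitum), Il21 had 0 UMIs in both libraries. Tox was at 135 CPM in FMD and 133 CPM in ad libitum there (0.02 [−0.25, 0.30]), beside the ratio of 0.98 in the Il10-led cells. That gate takes T-like cells of any sub-cluster, so it does not hold the same cells as the Il10-led sub-cluster. Tox levels differed between regulatory sub-clusters, at 330 CPM in FMD and 259 CPM in ad libitum in Il1rl1-led cells. Il10-led cells had 68.2 CPM in FMD and 34.6 CPM in ad libitum.

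Other genes of the follicular helper program were read from lists in follicular helper-like cells. Of 8 genes for IL-21 and help signals, 7 had at least 100 UMIs and 0 were called, with a median log2 ratio of −0.18 beside 0.03 over all genes tested. Cd40lg, the ligand through which helper T cells license B cells, had 68 UMIs in FMD and 108 in ad libitum (−0.83 [−1.29, −0.38]). Il21r gave 0.33 [0.08, 0.58]. Il4, a second B cell help cytokine, was far below the minimum, with 1 UMI in FMD and 13 in ad libitum.

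In the list around Bcl6, 5 of 9 genes had enough UMIs, 0 were called, and the median was −0.06. Bcl6 gave −0.08 [−0.44, 0.28] and Tcf7, a factor that acts upstream of it, −0.06 [−0.21, 0.09]. Klf2, which restrains the follicular helper program in mice, was at 349 CPM in FMD and 470.5 CPM in ad libitum (−0.43 [−0.62, −0.24]). Of 9 SLAM receptor and kinase genes listed, 8 were in the files and 5 had enough UMIs, with 0 called and a median of −0.18. Slamf6 gave 0.05 [−0.14, 0.24] and Fyn −0.27 [−0.47, −0.07].

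Of 9 surface checkpoint and costimulation genes, 8 had enough UMIs and 0 were called, with a median of 0.17. Tnfsf8 gave 0.43 [0.29, 0.58], Ctla4 0.34 [0.19, 0.49], Icos 0.21 [0.08, 0.35] and Pdcd1 −0.20 [−0.56, 0.15]. Of 8 genes for follicle positioning, 5 had enough UMIs, 0 were called and the median was 0.02. Cxcl13, the ligand of Cxcr5, had 2 UMIs in FMD and 0 in ad libitum follicular helper-like cells. Of 6 Maf family and partner genes, 2 had enough UMIs: Batf gave −0.29 [−0.49, −0.10] and Mafg −0.12 [−0.64, 0.41]. Irf4, a partner of Batf, was below the minimum, with 22 UMIs in FMD and 40 in ad libitum (−1.02 [−1.84, −0.24]). Tox4, the TOX family member with enough UMIs, gave 0.37 [0.03, 0.71], and Tox3 had 0 UMIs in both libraries.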

How the data were processed

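Single-cell RNA was counted in 2 libraries of CD45+ cells, 1 per diet, each pooled from 4 mice. The deposited matrices hold raw UMI counts per gene and barcode, which Cell Ranger 3.1.0 wrote per the file headers; the deposited gene and barcode lists name their rows and columns. Per the submitters' processing notes, CASAVA 1.8, Seurat 2.3.4 and build GRCm38 were also used, with no role given.

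Cells were kept with at least 200 genes and at most 20% mitochondrial UMIs. Scrublet (scanpy 1.11.5) called 0.0422% of FMD and 0.0404% of ad libitum cells, so it did not work here. A rule added after that result was seen therefore removed 151 FMD and 102 ad libitum barcodes in which 2 of 3 marker panels (B, T, myeloid) each reached 5 UMIs and 0.5 per 1000. Both libraries were clustered together by Leiden (leidenalg 0.10.2) at resolution 1 on 2000 variable genes and 30 components, and T-like clusters were clustered again, the 7 genes left out each time. The rule for naming sub-clusters and the removal of the B gene-bearing one were set after the clusters were seen. Regulatory T-like sub-clusters were not compared between diets as 1 class, because the leading genes of the Il1rl1-led one held more innate lymphoid than regulatory markers.

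UMIs were summed per library and group. Ratios were given where both libraries had 30 cells or more, and calls where a gene had 100 UMIs or more over both. Each of the 7 genes was described in every subset, and for each the 3 genes with the most similar pattern were named; listed genes were counted, and those 2-fold apart and the best known regulators named. The ratio's interval and call were tried on simulated independent Poisson counts. These share the interval's own assumption and do not hold the uneven spread of UMIs over single cells. The 7 genes and all lists were chosen with earlier results of these data known. With 1 library per diet, no p-value was computed. Alternatives changed the mitochondrial limit, doublet removal, variable genes, resolution, seed, gating, depth, single cells, denominator and subset mix.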

Additional observations from a re-analysis of the deposited data

Results flagged for a closer look

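Il21 UMIs lay in barcodes that the comparisons left out. The B gene-bearing T sub-cluster held 45 Il21 UMIs in ad libitum, 34.1% of the 132 in that library, against 2 in FMD. A single ad libitum barcode carried 41 of them. That barcode had 12110 UMIs in all, with 5 of Cd3e, 6 of Maf, 3 of Cd79a and 1 each of Cxcr5, Sh2d1a and Bcl6. Removed doublets held a further 10 Il21 UMIs in ad libitum, 9 of them in 1 barcode of 26378 UMIs with 12 of Cd79a and 10 of Cd3e, against 1 UMI in FMD. Whether such barcodes hold 1 cell or 2 was not tested.

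Izumo1r had counting intervals on opposite sides of 0 in different T cell groups. The log2 ratio (FMD over ad libitum) was 1.53 [0.55, 2.61] in naive CD8-like cells. It was −0.22 [−0.40, −0.05] in follicular helper-like cells and −0.38 [−0.64, −0.12] in Il10-led regulatory cells. The naive CD8-like value rests on 35 UMIs in FMD and 12 in ad libitum, below the minimum for a call. With thinned cells the follicular helper-like ratio turned to 0.10. The intervals leave out the uneven spread of UMIs over single cells. A single follicular helper-like cell held up to 21 Izumo1r UMIs in each library. The intervals alone thus do not establish opposite directions. Il21 gave 3.05 [0.00, 8.57] in effector CD8-like cells, from 6 UMIs in 2 FMD cells and 1 UMI in ad libitum. Of the 6, 5 lay in 1 barcode with 0 Cd8a UMIs, so this value rests on 1 cell. It is set against −0.90 [−1.60, −0.22] in follicular helper-like cells. With 1 library per diet, these differences between groups were not tested.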

How the results depend on the processing

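Of 209 alternatives for the ratios over all T-like cells, within follicular helper-like cells and against other T-like cells, and for the follicular helper-like share, 164 stayed within counting error, 45 moved beyond it and 195 kept their sign. With at most 10% mitochondrial UMIs, the follicular helper-like diet ratio was 0.80 for Tox and 0.20 for Maf. Against other T-like cells that limit gave, in FMD, Sh2d1a 2.11 and Tox 0.95, and in ad libitum Cxcr5 2.53, Tox2 3.16, Sh2d1a 1.93, Tox 0.29 and Maf 0.80. The alternative with no doublet removal also kept any B gene-bearing sub-cluster among the T-like cells. That setting gave a diet ratio over all T-like cells of −1.31 for Il21 and 0.34 for Maf. Against other T-like cells it gave, in FMD, Cxcr5 1.96 and Tox2 2.74, and in ad libitum Il21 2.55, Cxcr5 2.40 and Tox2 3.47. With the 7 genes among the variable genes, the follicular helper-like diet ratio of Maf was 0.16, and against other T-like cells Izumo1r was 2.36 in FMD and 3.16 in ad libitum, and Maf 1.08 in ad libitum. At resolution 0.5 Izumo1r was 2.23 in FMD and 2.85 in ad libitum. Thinning to 1000 UMIs gave diet ratios over all T-like cells of 0.81 for Tox2, −0.24 for Sh2d1a and 0.53 for Maf. Within follicular helper-like cells it gave −0.55 for Cxcr5, −0.32 for Sh2d1a and, with the sign turned, 0.10 for Izumo1r. Against other T-like cells it gave, in FMD, Il21 4.92, Tox2 2.55, Izumo1r 2.37 and Maf 0.58, and in ad libitum Tox2 5.22 and Izumo1r 2.26. One common subset mix gave, over all T-like cells, −0.11 for Izumo1r and 0.058 for Maf. Both of the next were chosen after seeing the data. With the B gene-bearing sub-cluster kept, Il21 over all T-like cells was −1.15. Without the Gal-led sub-cluster, the level against other T-like cells was, in FMD, Sh2d1a 1.96, Tox 0.93 and Maf 0.51, and in ad libitum Cxcr5 2.54, Tox2 3.24, Sh2d1a 2.00, Tox 0.64 and Maf 0.89. The causes were not tested. Of 342 alternatives in other subsets, 310 lay within the counting interval of the main value and 296 kept their sign.

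Seed 2 and all UMIs as the denominator moved none of these ratios out of the counting interval of the main value. The gate on single UMIs has a cluster counterpart for gamma delta T cells alone. No paired analysis was possible because each diet has 1 library and they share 1 replicate number. For the same reason no replicate was left out. The spread between mice is not in any interval. Il21 rests on 50 UMIs in FMD and 71 in ad libitum T-like cells.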

Other observations

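The doublet rule took away a sizable part of some genes. Removed doublets held 17.4% of Tox2 UMIs in FMD and 10.9% in ad libitum, and 13.7% and 11.2% of Sh2d1a UMIs. They also held 16.0% of Izumo1r UMIs in FMD and 13.1% in ad libitum, and 12.4% and 9.67% of Maf UMIs. They held 6.31% of Cxcr5 UMIs in FMD and 4.74% in ad libitum.

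Outside T cells, Maf was also counted in B-like cells, at 18.2 CPM in FMD and 25.7 CPM in ad libitum (−0.50 [−0.73, −0.27]), with a Maf UMI in 6.61% of FMD and 8.14% of ad libitum cells. Cxcr5 in the same B-like cells gave 0.19 [0.09, 0.29]. Of the 7 genes 2 had at least 100 UMIs there and 0 were called, where 0.149% of genes were.

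The Ifit3-led sub-cluster, whose leading genes are interferon-induced, held 23 FMD cells and 3 ad libitum cells. Its FMD cells had 37 Izumo1r and 17 Sh2d1a UMIs, and its ad libitum cells 0 and 12.

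Germinal center B-like cells held 3 Il21 UMIs in FMD, all in 1 barcode that also had 4 each of Tox2, Sh2d1a, Maf and Cd3e UMIs, and 5 in ad libitum, in 4 barcodes.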
